A study of Mus musculus with 12 samples.

Results

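During myeloid differentiation of wild-type cells, 1365 of 60072 ATAC-seq peaks opened at least 4-fold to a level of at least 2, and 286 of these reached at most 0.5 times the wild-type level in cells that overexpress HMGN1. These 286 lagging peaks (0.476% of all peaks and 21.0% of the peaks that opened in wild-type cells) are described here. They were selected on the measurements themselves. The level of a peak was its RPKM (reads in the peak, scaled to the width of the peak and the size of the library) divided by the median RPKM of all peaks in that library, so that a level of 1 is that of the median peak. A lagging peak had a mean level of at least 2 in wild-type cells at 96 h, at least 4 times the wild-type mean level at 0 h, and a mean HMGN1-OE level at 96 h of at most 0.5 times the wild-type mean. The other 1079 peaks that met the wild-type conditions, called other opening peaks below, served as the set most like them. The word lagging refers to the level at 96 h alone. With 2 time points, opening later and opening less cannot be told apart.

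The cells were CD117+ progenitors from mouse bone marrow on a C57BL/6 background. All of them, wild-type cultures included, carried a retrovirus for HoxB8 fused to the estrogen receptor, which holds the cells immature while estradiol is present, and grew in interleukin 3. The 4 groups were HMGN1-OE cells at 96 h after estradiol was withdrawn, wild-type cells at 96 h, HMGN1-OE cells at 0 h (with estradiol) and wild-type cells at 0 h, with 3 libraries each. HMGN1-OE cells came from transgenic mice that overexpress human HMGN1, and wild-type cells came from littermates. The labels call the replicates biologically independent. The sources used here do not give the number of immortalized lines behind each genotype, so genotype and line cannot be told apart. In bulk cultures, fewer cells with a site open and less opening per cell cannot be told apart either. The labelled cell type was not checked against marker genes, because the peaks are given on mouse build mm9 and no gene annotation of that build was used here.

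HMGN1 is a small protein that binds nucleosomes and competes with linker histone H1, and it is associated with less compact chromatin. In ATAC-seq a transposase cuts DNA that nucleosomes leave exposed, so that peaks mark promoters, enhancers and other sites where proteins displace nucleosomes. As myeloid progenitors mature, sites used by the mature cells open while sites of the progenitor state close.

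The libraries held 21581528 to 35560463 reads each, and 24.7% to 50.02% of these fell in peaks. The highest share belonged to wild-type replicate 1 at 96 h, and the other wild-type libraries at that time had 35.1% and 39.8%. The HMGN1-OE libraries at 96 h had the lowest shares, 24.7% to 29.5%. Replicates of a group correlated over all peaks with Pearson's r of 0.955 to 0.971. A lagging peak held a median of 37 to 39 reads in HMGN1-OE libraries at 96 h and of 80.5 to 176.5 reads in wild-type libraries at 96 h. At 0 h the medians were 9 to 10 reads in HMGN1-OE libraries and 13 to 15.5 reads in wild-type libraries, so that levels of single peaks at 0 h were measured with little precision.

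At 96 h the lagging peaks had a median level of 1.08 in HMGN1-OE cells (middle 50% of peaks 0.85 to 1.52) and of 2.83 in wild-type cells (2.29 to 3.87). At 0 h the medians were 0.24 in HMGN1-OE cells (0.15 to 0.40) and 0.39 in wild-type cells (0.24 to 0.54). The low wild-type level at 0 h and the cap on the HMGN1-OE level at 96 h follow from the selection, whereas the HMGN1-OE level at 0 h, which the selection did not use, ranged from 0.02 to 2.19. The HMGN1-OE level at 96 h reached that of the median peak in 166 of 286 peaks and reached 2 in 35. The median over the lagging peaks varied little between libraries. It was 1.09, 1.06 and 1.11 in the HMGN1-OE libraries at 96 h and 2.96, 2.86 and 2.82 in the wild-type libraries at 96 h. At 0 h it was 0.238, 0.238 and 0.237 in the HMGN1-OE libraries and 0.378, 0.384 and 0.364 in the wild-type libraries. The wild-type library with the highest share of reads in peaks was thus close to the others in its median. Its middle 50% of lagging peaks began higher, at a level of 2.491 against 2.272 and 2.185 in the other wild-type libraries at 96 h.

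**Figure D1:**
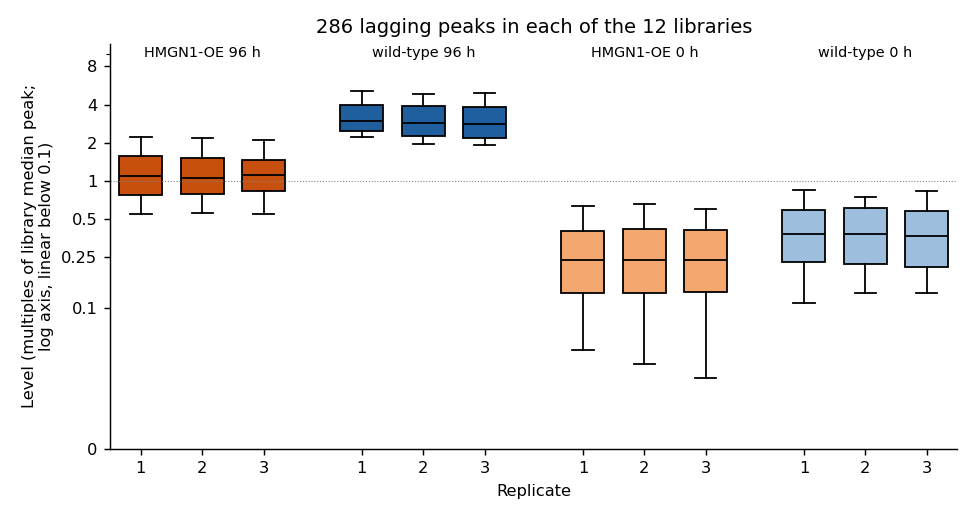
Levels of the 286 lagging peaks (multiples of the library's median peak, log axis, linear below 0.1) in the 12 libraries, grouped as HMGN1-OE 96 h, wild-type 96 h, HMGN1-OE 0 h and wild-type 0 h. Boxes show the median and the middle 50% of peaks and whiskers the 10th to 90th percentile. The medians lie between 1.06 and 1.11 in HMGN1-OE libraries and between 2.82 and 2.96 in wild-type libraries at 96 h.

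**Figure D2:**
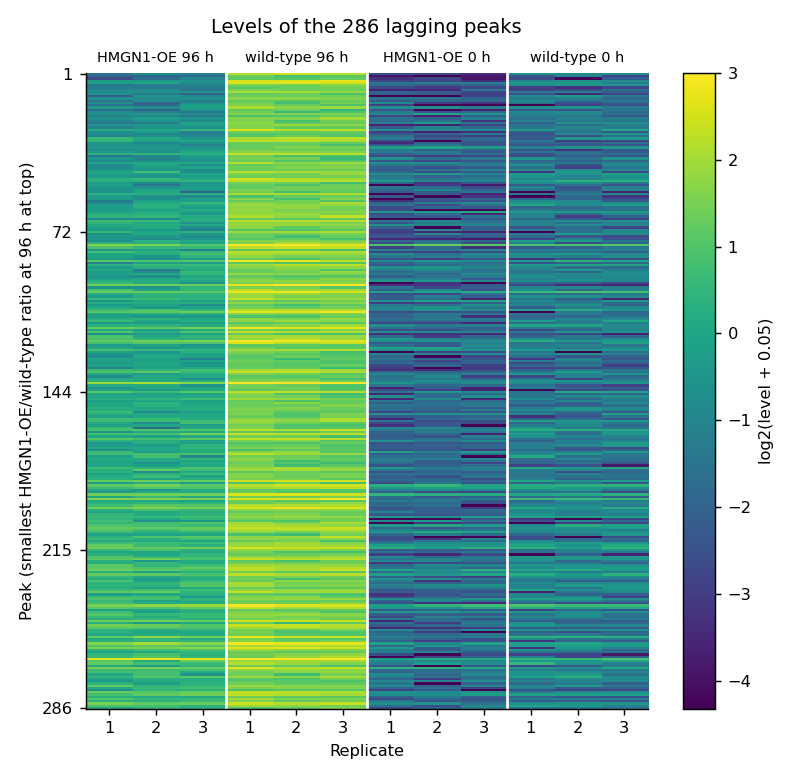
Level of each lagging peak (rows, log2 of level plus 0.05) in each library (columns), with the smallest ratio of HMGN1-OE to wild-type level at 96 h at the top. The HMGN1-OE columns at 96 h lie between the 0 h columns and the wild-type columns at 96 h for most peaks.

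The ratio of HMGN1-OE to wild-type level at 96 h had a median of 0.395 (0.0878 to 0.5) over the lagging peaks, against 0.766 over the other opening peaks. These ratios are set by the selection. The limit at 0.5 cut through a continuous distribution. Within 0.05 of it lay 77 lagging peaks and 73 other opening peaks. The ratio was 0.4998 at chr3:84473054-84473368 and 0.4971 at chr15:83125424-83125793, just inside the limit. Just outside it, the ratio was 0.5001 at chr4:66518078-66518484 and 0.5013 at chr4:135474743-135475444. The lowest wild-type levels at 96 h among lagging peaks were 2.008 and 2.011, and the nearest peaks below the limit had 1.996 and 1.99. The smallest wild-type increases were 4.0-fold and 4.042-fold inside the limit, and the nearest outside were 3.993-fold and 3.965-fold. Among the 1365 peaks that opened in wild-type cells, 36 had a ratio up to 0.25, 250 lay between 0.25 and 0.5, 499 between 0.5 and 0.75, 405 between 0.75 and 1, and 175 above 1. The lagging peaks are therefore the lower end of a distribution in which most opening peaks had a lower level in HMGN1-OE cells than in wild-type cells, and not a separate group. Division by the median peak takes out a factor common to all peaks, but leaves differences in the spread of levels. At 96 h the 10th percentile of all peaks was 0.30 in HMGN1-OE cells and 0.22 in wild-type cells. The 90th percentile was 4.62 in HMGN1-OE cells and 4.77 in wild-type cells. The part of this difference in the ratios was not tested. On the RPKM as deposited, where the median log2 difference between HMGN1-OE and wild-type cells at 96 h was -0.48 over all tested peaks, 1834 peaks met the 3 conditions, all 286 lagging peaks among them.

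**Figure D3:**
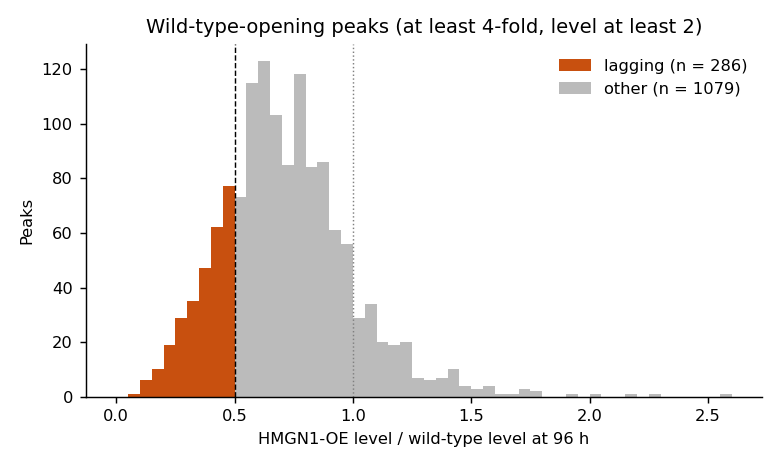
Number of peaks (y axis) by the ratio of HMGN1-OE to wild-type level at 96 h (x axis) among the 1365 peaks that opened in wild-type cells. The 286 lagging peaks lie left of the dashed line at 0.5, where the distribution has no gap, and the dotted line marks a ratio of 1.

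Because the selection used all libraries at 96 h and the wild-type libraries at 0 h, the conditions were also applied with the libraries of a single replicate number left out, and the peaks so chosen were measured in the libraries left out. Without replicate 1, 263 peaks were chosen, 227 of them lagging peaks. In replicate 1 their median ratio of HMGN1-OE to wild-type level at 96 h was 0.385, against 0.77 for the 1051 other opening peaks chosen the same way, and the HMGN1-OE level was below the wild-type level in all 263. Without replicate 2, 328 peaks were chosen, and their median ratio in replicate 2 was 0.424, against 0.797 for the other opening peaks. Without replicate 3, 318 peaks were chosen, and the median ratio in replicate 3 was 0.45, against 0.789. In the libraries left out, the HMGN1-OE level at 96 h was below the wild-type level in 263 of 263, 323 of 328 and 315 of 318 peaks. This direction was common among opening peaks. With all libraries, the log2 difference at 96 h, as tested below, was under 0 in 84.8% of the other opening peaks and 48.2% of tested peaks. In the libraries left out, the direction was not counted for the other opening peaks, so the counts for the chosen peaks have no like baseline. The libraries left out share genotype, and may share cell lines, with those that chose the peaks. They describe repeatability between libraries and are no separate evidence on genotype. Membership was less stable than direction. The ratio was again at most 0.5 in 205 of 263, 216 of 328 and 194 of 318 peaks in the libraries left out (77.9%, 65.9% and 61.0%), against 10.7%, 7.23% and 6.76% of the other opening peaks. All 3 conditions were met again in 66.9%, 48.8% and 48.1%.

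All 286 lagging peaks passed the filter on low values, 13 of them only through the wild-type libraries at 96 h. Differences were tested with limma on log2(RPKM + 1) over 57424 peaks, with Benjamini-Hochberg adjustment and a call at an adjusted p under 0.05. Log2 changes below are on this scale, which makes the change of weak peaks look smaller than it was. The contrasts that selected the peaks give no evidence about them. All 286 were called higher in wild-type cells at 96 h than at 0 h (34.2% of tested peaks were), and all 286 were called lower at 96 h in HMGN1-OE cells than in the wild type (11.2% of tested peaks were).

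Most of the lagging peaks rose in HMGN1-OE cells, by less than in wild-type cells. In HMGN1-OE cells 272 of 286 lagging peaks (95.1%) rose over the 96 h, where 31.1% of tested peaks rose, and none was called lower, where 29.1% of tested peaks fell. Of the other opening peaks, 1078 of 1079 (99.9%) rose. At an unadjusted limma p under 0.05, 275 lagging peaks were higher and 0 lower. Of all 57424 tested peaks, 18741 were higher and 17963 lower at the same limit. The median log2 change was 1.41 for lagging peaks, 2.24 for the other opening peaks and -0.03 over all tested peaks. The selection capped the HMGN1-OE level at 96 h and so worked against a rise. It also sets the difference from the other opening peaks, which therefore was not tested. In 263 lagging peaks (92.0%) the 3 HMGN1-OE libraries at 96 h all lay above the 3 at 0 h, as they did in 99.9% of the other opening peaks and 30.4% of tested peaks. As a ratio of mean levels, the increase was 4.58-fold at the median lagging peak in HMGN1-OE cells (middle 50% 2.7 to 7.19) and 7.9-fold in wild-type cells. It was at least 2-fold in 257 peaks and at least 4-fold in 157. Among the other opening peaks the median increase was 8.03-fold in HMGN1-OE cells and 6.17-fold in wild-type cells. The low end of all peaks rose in HMGN1-OE cells as well. The 10th percentile of the level over all peaks was 0.30 at 96 h and 0.16 at 0 h in HMGN1-OE cells. In wild-type cells it was 0.22 at both times. The part of this shift in the rise of the lagging peaks, which were weak at 0 h, was not tested.

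The gain in level between 0 h and 96 h in HMGN1-OE cells came to a median of 33.6% of the wild-type gain at the lagging peaks (-7.65% to 53.7%) and to 77.9% at the other opening peaks. The cap on the HMGN1-OE level at 96 h also caps this share at the lagging peaks. It sets the gap to the other opening peaks too, so these shares are descriptions. In 208 lagging peaks the HMGN1-OE gain was at least 25% of the wild-type gain, in 64 it was 10% to 25%, and in 14 it was below 10%. Across the 286 lagging peaks the HMGN1-OE level at 96 h went with the wild-type level at 96 h (Spearman's rho of 0.75) and less with the HMGN1-OE level at 0 h (0.33). These correlations are descriptions across peaks that share libraries and selection.

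**Figure D4:**
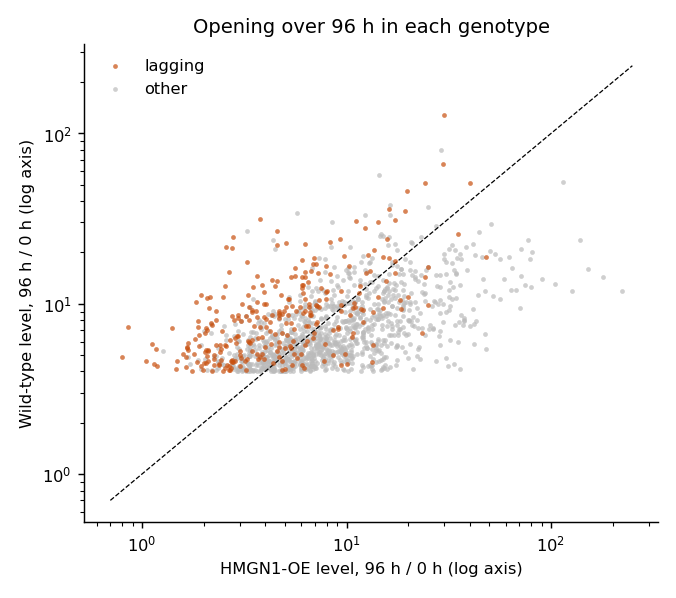
Increase in level between 0 h and 96 h in HMGN1-OE cells (x axis) and in wild-type cells (y axis), both as ratios of group mean levels on log axes, for lagging peaks and other opening peaks. Most lagging peaks lie above the dashed line of equal increase (medians 4.58-fold in HMGN1-OE and 7.9-fold in wild-type cells). Under the selection, a lagging peak lies below it only if HMGN1-OE cells had a lower level at 0 h than wild-type cells.

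The 14 lagging peaks whose change in HMGN1-OE cells was not called had a median level of 0.77 at 96 h and of 0.59 at 0 h in HMGN1-OE cells. In wild-type cells the same 14 had medians of 2.48 at 96 h and 0.48 at 0 h. They were narrower, with a median width of 282 bp against 372 bp for the 272 called peaks, and held fewer reads, with a median of 21.2 against 39.7 per HMGN1-OE library at 96 h. In 2 lagging peaks the HMGN1-OE mean level at 96 h was below that at 0 h. At chr15:79185117-79185371 it was 0.70, 0.65 and 0.64 at 96 h and 0.84, 0.93 and 0.72 at 0 h in HMGN1-OE cells. The corresponding wild-type levels were 2.43, 2.93 and 2.75 at 96 h and 0.41, 0.59 and 0.66 at 0 h. All 3 HMGN1-OE libraries at 96 h lay below the 3 at 0 h, but the log2 change of -0.18 (SE 0.17) was not called (limma, adjusted p = 0.377). With RPKM as deposited, the change at chr15:79185117 was -0.62 and called. At chr2:119834479-119834830 the HMGN1-OE levels were 0.62, 0.65 and 0.50 at 96 h and 0.46, 0.95 and 0.66 at 0 h, and the groups overlapped (log2 change -0.08, SE 0.20, limma adjusted p = 0.737, and 0.10 without HMGN1-OE replicate 2 at 0 h). Wild-type levels at that peak were 3.02, 2.93 and 2.88 at 96 h and 0.41, 0.52 and 0.27 at 0 h.

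Before differentiation, the lagging peaks had on the whole slightly lower levels in HMGN1-OE cells, as had the other opening peaks. At 0 h, 45 of 286 lagging peaks (15.7%) were called lower in HMGN1-OE cells, where 11.5% of tested peaks were lower, and 5 (1.75%) were called higher, where 10.9% of tested peaks were higher. The remaining 236 were not called. The median log2 difference was -0.17, with 201 of 286 (70.3%) below 0, against 0.03 over all tested peaks, with 47.1% below 0. Weak peaks in general were also lower at 0 h. The 10th percentile of the level over all peaks was 0.16 in HMGN1-OE cells and 0.22 in wild-type cells. Whether the lagging peaks differ from other peaks of like level was not tested. The other opening peaks had a median of -0.24, with 228 of 1079 (21.1%) called lower and 26 (2.41%) called higher, so the lagging peaks were not further down than opening peaks in general. Whether the sets differ was not tested. The wild-type libraries at 0 h entered the selection with an upper limit on their level, which favours a higher HMGN1-OE value and does not favour a lower one. Without overlap between the groups, the HMGN1-OE levels at 0 h lay below the wild-type levels in 85 lagging peaks (29.7%, against 27.3% of tested peaks) and above them in 7 (2.45%, against 12.3% of tested peaks). The share below was close to that of all tested peaks. The direction of the median held under all 5 scalings of the libraries (-0.05 to -0.27 for lagging peaks). The scaling moved the median of all tested peaks by more than 0.1, to 0.21 with RPKM as deposited and to -0.11 with division by the median peak. With RPKM as deposited, 22 lagging peaks were called lower and 8 higher, where 2.62% of tested peaks were called lower and 14.3% higher. All 45 peaks that were called lower at 0 h rose in HMGN1-OE cells between 0 h and 96 h, and of the 5 called higher 3 rose and 2 were not called. Both comparisons share the HMGN1-OE libraries at 0 h, so that a low value there favours both calls.

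The clearest difference before differentiation was at chr19:40475515-40476114. Levels at 0 h were 0.24, 0.28 and 0.36 in HMGN1-OE cells and 1.55, 1.5 and 1.51 in wild-type cells, and the groups did not overlap (log2 difference -1.52, SE 0.13, limma adjusted p = 9.5e-08). At 96 h the levels were 3.04, 2.93 and 2.89 in HMGN1-OE cells and 6.10, 6.32 and 7.77 in wild-type cells. The site therefore opened 10.1-fold in HMGN1-OE cells and 4.43-fold in wild-type cells, and was lower in HMGN1-OE cells at both times. A like pattern was seen at chr15:79562039-79562368. Levels at 0 h were 0.14, 0.15 and 0.08 in HMGN1-OE cells and 1.0, 0.69 and 1.14 in wild-type cells (log2 difference -1.48, SE 0.16, limma adjusted p = 2.11e-06). At 96 h they were 2.67, 2.93 and 2.80 in HMGN1-OE cells and 6.07, 6.86 and 6.0 in wild-type cells. The log2 increase over the 96 h in HMGN1-OE cells was 3.04 (SE 0.16, limma adjusted p = 6.64e-12).

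At chr7:20081598-20081827 the levels at 0 h were 0.39, 0.34 and 0.33 in HMGN1-OE cells and 1.21, 1.27 and 1.25 in wild-type cells (log2 difference -1.13, SE 0.15, limma adjusted p = 1.95e-05). At 96 h the levels were 2.28, 3.30 and 2.59 in HMGN1-OE cells and 6.59, 5.41 and 5.12 in wild-type cells, again with no overlap. At chr11:28441373-28441630 the HMGN1-OE libraries at 0 h held 0, 0 and 3 reads and the wild-type libraries 13, 18 and 11 (log2 difference -1.27, SE 0.25, limma adjusted p = 0.00126). A fitted change at so few reads depends on the added constant of 1 RPKM. This site stayed low in HMGN1-OE cells at 96 h, with levels of 0.16, 0.65 and 0.48 against 2.47, 2.31 and 2.57 in wild-type cells.

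A mean level at 0 h that was higher in HMGN1-OE cells was found in 60 lagging peaks (21.0%), but the difference was called in 5 of them. At chr7:108178027-108178266 the levels at 0 h were 1.23, 1.27 and 1.07 in HMGN1-OE cells and 0.65, 0.54 and 0.97 in wild-type cells (log2 difference 0.71, SE 0.16, limma adjusted p = 0.00393). At 96 h they were 2.75, 2.78 and 2.35 in HMGN1-OE cells and 6.42, 4.47 and 5.27 in wild-type cells, so that the order of the genotypes turned over the time course. The calls at chr11:82878416-82878687 (log2 difference 0.63, limma adjusted p = 0.0211), chr2:119834479-119834830 (0.60, limma adjusted p = 0.031) and chr15:79185117-79185371 (0.54, limma adjusted p = 0.0249) were lost under several other settings, among them leaving out HMGN1-OE replicate 2 at 0 h.

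The largest shortfalls among lagging peaks whose wild-type level at 96 h was at or above the median of lagging peaks left the HMGN1-OE mean level below that of the median peak, as the choice of these peaks favours. At chr4:104621576-104622110 the levels at 96 h were 0.29, 0.56 and 0.42 in HMGN1-OE cells and 4.52, 5.35 and 4.71 in wild-type cells, a ratio of 0.0878. At 0 h they were 0.12, 0.11 and 0.05 in HMGN1-OE cells and 0.62, 0.49 and 0.55 in wild-type cells. The HMGN1-OE level at 96 h was thus about that of wild-type cells before differentiation. It still rose over the 96 h in HMGN1-OE cells (log2 change 0.97, SE 0.19, limma adjusted p = 0.000168), and it was lower than in wild-type cells already at 0 h (log2 difference -1.06, SE 0.19, limma adjusted p = 0.000436). At chr4:119638921-119639738 the levels at 96 h were 0.81, 0.74 and 0.65 in HMGN1-OE cells and 5.57, 5.96 and 6.57 in wild-type cells, a ratio of 0.121. At 0 h they were 0.09, 0.10 and 0.05 in HMGN1-OE cells and 0.44, 0.57 and 0.52 in wild-type cells. This second site on chromosome 4 likewise differed before differentiation (log2 difference -1.04, SE 0.16, limma adjusted p = 0.000137) and rose in HMGN1-OE cells (log2 change 1.57, SE 0.16, limma adjusted p = 8.61e-08).

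At chr17:24103831-24104388 the levels at 96 h were 0.83, 0.95 and 0.51 in HMGN1-OE cells and 6.11, 6.56 and 5.82 in wild-type cells, a ratio of 0.124. At 0 h they were 0.32, 0.41 and 0.37 in HMGN1-OE cells and 0.67, 0.68 and 0.37 in wild-type cells, and this difference was not called (log2 difference -0.26, SE 0.18, limma adjusted p = 0.337). The increase over 96 h at this peak was 2.08-fold in HMGN1-OE cells and 10.8-fold in wild-type cells. At chr9:57166801-57167356 the levels at 96 h were 0.32, 0.37 and 0.44 in HMGN1-OE cells and 2.91, 2.67 and 3.20 in wild-type cells. Its levels at 0 h were 0.24, 0.16 and 0.21 in HMGN1-OE cells and 0.56, 0.72 and 0.66 in wild-type cells, so that the HMGN1-OE level at 96 h lay below the wild-type level at 0 h. The remaining peaks among the 6 with the largest shortfall at such wild-type levels, chr8:125219239-125219745 and chr17:33916187-33916624, had ratios of 0.161 and 0.177 and no called difference at 0 h.

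The lagging peaks with the highest wild-type levels opened widely in HMGN1-OE cells too, with an exception on chromosome 10. At chr2:91812067-91812750, the highest, the levels at 96 h were 6.49, 6.79 and 6.21 in HMGN1-OE cells and 13.45, 13.05 and 13.48 in wild-type cells. At 0 h they were 0.81, 1.08 and 1.03 in HMGN1-OE cells and 1.32, 1.49 and 1.82 in wild-type cells. The log2 increase in HMGN1-OE cells was 2.51 (SE 0.12, limma adjusted p = 1.58e-12), and at 96 h the site stood well above the median peak in both genotypes. At chr19:29535631-29536141 the levels at 96 h were 2.66, 2.57 and 2.45 in HMGN1-OE cells and 6.79, 7.68 and 7.85 in wild-type cells. The site was almost closed at 0 h, with 15 reads summed over the HMGN1-OE libraries and 9 over the wild-type libraries, so that both genotypes opened it from near 0 (log2 increase in HMGN1-OE cells 3.06, SE 0.16, limma adjusted p = 8.51e-12).

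At chr10:94642852-94643217 the levels at 96 h were 2.98, 2.90 and 1.96 in HMGN1-OE cells and 10.04, 8.09 and 6.71 in wild-type cells. At 0 h they were 1.89, 2.5 and 2.18 in HMGN1-OE cells and 1.84, 1.86 and 2.03 in wild-type cells. This site, already open in progenitors of both genotypes, showed no called rise in HMGN1-OE cells (log2 change 0.28, SE 0.15, limma adjusted p = 0.12), and its 96 h and 0 h libraries overlapped. The log2 change at chr10:94642852 was -0.27 with RPKM as deposited, and without HMGN1-OE replicate 3 at 96 h it was 0.45 and called. At chr19:3907956-3908167 the levels at 96 h were 3.70, 4.08 and 3.05 in HMGN1-OE cells and 9.77, 9.06 and 8.87 in wild-type cells, and at 0 h the genotypes overlapped. Its log2 increase in HMGN1-OE cells was 2.36 (SE 0.15, limma adjusted p = 9.74e-11). The other 2 of the 6 highest, chr7:25244919-25245126 and chr11:100864348-100864686, had ratios of 0.369 and 0.481 and increases of 4.65-fold each in HMGN1-OE cells.

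The largest proportional increases in HMGN1-OE cells came from peaks with hardly any reads at 0 h. At chr15:51570192-51570598 the HMGN1-OE libraries held 84, 80 and 75 reads at 96 h and 2, 2 and 4 at 0 h (log2 change 2.86, SE 0.16, limma adjusted p = 2.03e-11). Its levels at 96 h were 2.16, 2.05 and 1.89 in HMGN1-OE cells and 3.81, 4.72 and 4.25 in wild-type cells. This peak opened in every HMGN1-OE library and still met the conditions, at a ratio of 0.477. At chr3:54841565-54841869 the HMGN1-OE libraries held 42, 31 and 18 reads at 96 h and 0, 2 and 0 at 0 h. The levels at 96 h there were 1.44, 1.06 and 0.61 in HMGN1-OE cells and 2.82, 2.98 and 3.29 in wild-type cells, with no overlap. No fold is given for it, because so few reads at 0 h do not fix a ratio.

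The lagging peaks were narrower than the other opening peaks. Their median width was 365 bp (middle 50% 253.25 to 490), against 421 bp for the other opening peaks and 430 bp for all peaks, and 38.1%, 28.2% and 29.0% were under 300 bp wide. This held at low, middle and high wild-type levels at 96 h. The median widths were 360 bp for lagging and 382 bp for other opening peaks with a wild-type level up to 2.51, 342 bp and 417 bp for levels up to 3.43, and 400 bp and 471.5 bp above that. Along the ratio of HMGN1-OE to wild-type level, the median width was 367.5 bp up to a ratio of 0.25, 365 bp between 0.25 and 0.5, 405 bp between 0.5 and 0.75, 431 bp between 0.75 and 1 and 430 bp above 1. Peak width also sets how many reads a peak collects, and its part in these differences was not tested.

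Lagging peaks lay in stretches with other peaks. The median distance to the nearest peak was 4.13 kb for lagging peaks, 4.63 kb for other opening peaks and 6.99 kb for all peaks. No other peak lay within 10 kb of 56 lagging peaks (19.6%), of 24.8% of other opening peaks and of 36.1% of all peaks. On the chromosomes, the share of opening peaks that lagged was highest on chromosome 5 (25 of 75, 33.3%) and lowest on chromosome 14 (4 of 52, 7.69%). Chromosome 16, which carries the mouse Hmgn1 gene, had 7 lagging peaks among 67 opening peaks (10.4%). The median log2 difference between HMGN1-OE and wild-type cells over all peaks of a chromosome lay between -0.033 and 0.049 at 96 h.

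Peaks close to a lagging peak, which the selection did not choose, were also lower in HMGN1-OE cells at 96 h more often than peaks in general. Of 389 such neighbours within 10 kb, 107 (27.5%) were called lower and 24 (6.17%) higher, where 11.2% of tested peaks were called lower, and their median log2 difference was -0.17. Without the neighbours that were themselves among the 1365 opening peaks, 94 of 367 (25.6%) were called lower. The neighbours of the other opening peaks, counted in the same way and away from lagging peaks, had 232 of 1282 (18.1%) called lower, with a median of -0.09. The share called lower near lagging peaks was 36.5% within 2 kb (63 peaks), 24.6% from 2 to 5 kb and 22.5% from 5 to 10 kb, and came to 11.1% from 100 to 200 kb. Near the other opening peaks it was 17.8% within 2 kb, 19.0% from 2 to 5 kb, 17.6% from 5 to 10 kb and 10.4% from 100 to 200 kb. Among neighbours outside the 1365 opening peaks, 182 of 367 (49.6%) near lagging peaks were called higher in wild-type cells at 96 h than at 0 h. Near other opening peaks, 685 of 1282 (53.4%) were. At 0 h, 12.9% of the neighbours of lagging peaks were called lower in HMGN1-OE cells, near the 11.5% of all tested peaks. Whether the neighbours of the 2 sets differ was not tested. The neighbours were measured in the same libraries at 96 h that selected the lagging peaks. Without wild-type replicate 1 at 96 h, whose share of reads in peaks was highest, 18.5% of neighbours and 7.51% of all tested peaks were called lower, and with RPKM as deposited the shares were 69.9% and 47.1%.

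**Figure D5:**
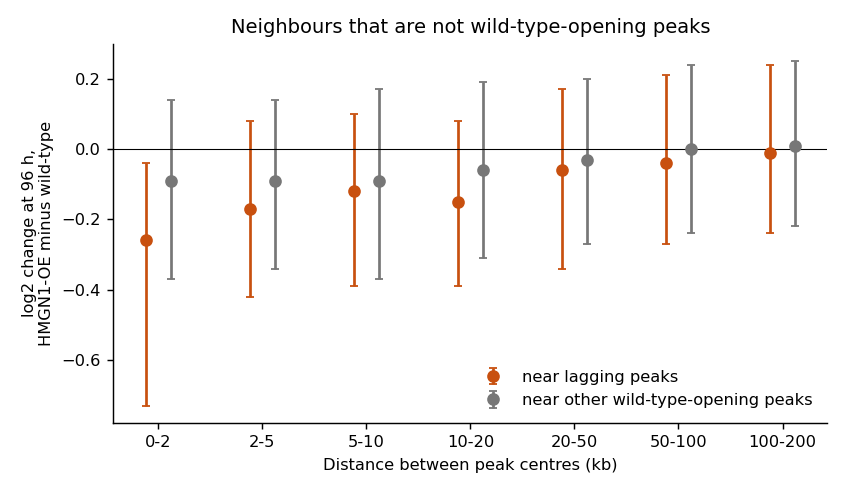
Log2 difference between HMGN1-OE and wild-type cells at 96 h (y axis) in peaks outside the 1365 that opened in wild-type cells, by distance (x axis, kb between peak centres) from lagging peaks and from other opening peaks. Points are medians and bars the middle 50% of peaks. The median near lagging peaks was -0.26 within 2 kb and -0.01 from 100 to 200 kb, and near other opening peaks -0.09 and 0.01.

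Opening peaks that lay near each other tended to lag together. Of 47 opening peaks with a lagging peak within 10 kb, 25 (53.2%) were lagging peaks themselves. Of 139 whose opening neighbours within 10 kb were all non-lagging, 17 (12.2%) were lagging. Within 200 kb the shares were 27.4% of 223 and 18.1% of 431. These counts use the same measure as the selection and are a description. Most lagging peaks nevertheless stood alone: they fell in 262 windows of 200 kb, of which 22 held more than 1, together 46 peaks.

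The windows with the most lagging peaks, 3 each, were both on chromosome 13. In chr13:20000001-20200000 there were 11 peaks, 5 of which opened in wild-type cells. Its 3 lagging peaks lay within 5 kb of each other. At chr13:20008925-20009674 the levels were 2.08, 1.74 and 2.17 in HMGN1-OE cells and 4.90, 4.95 and 4.71 in wild-type cells at 96 h. At chr13:20012183-20012398 the mean levels were 1.65 in HMGN1-OE and 3.85 in wild-type cells at 96 h, and at chr13:20012988-20013533 they were 1.25 and 3.91. The opening peak between them, chr13:20009824-20010904, was not a lagging peak but was also lower, at 1.75 in HMGN1-OE and 3.05 in wild-type cells. The fifth opening peak of the window, chr13:20184264-20184587, farther away, had 7.80 in HMGN1-OE and 10.59 in wild-type cells. At 0 h all 3 lagging sites had mean levels of 0.25 to 0.42 in HMGN1-OE cells and 0.29 to 0.60 in wild-type cells.

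In chr13:55800001-56000000 there were 9 peaks, and its 3 opening peaks were all lagging. Mean levels at 96 h were 1.64 in HMGN1-OE and 3.56 in wild-type cells at chr13:55959731-55960185, 0.92 and 2.11 at chr13:55993485-55993970, and 1.62 and 3.46 at chr13:55996819-55997326. A peak between them that opened from a lower level, chr13:55982762-55983115, had 0.56 in HMGN1-OE and 1.33 in wild-type cells at 96 h, a ratio of 0.417 that missed only the condition on the wild-type level. In the same window, chr13:55859119-55859361 went the other way in both respects, with 0.60 in HMGN1-OE and 0.32 in wild-type cells at 96 h and a wild-type level of 0.83 at 0 h. The lower level in HMGN1-OE cells was thus a property of some peaks of the window and not of all of them.

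In chr12:81200001-81400000, among the windows with 2 lagging peaks, 20 peaks were listed and 5 opened in wild-type cells. Mean levels at 96 h were 1.13 in HMGN1-OE and 2.35 in wild-type cells at the lagging peak chr12:81329947-81330501, and 1.24 and 2.78 at chr12:81337860-81338391. Between these lay opening peaks with a smaller difference, at 1.62 in HMGN1-OE and 2.05 in wild-type cells (chr12:81332477-81332816) and at 2.51 and 3.74 (chr12:81336366-81336704). A peak of the same window that closed in wild-type cells, chr12:81213789-81214609, stood higher in HMGN1-OE cells at 96 h, with 6.36 in HMGN1-OE cells and 4.01 in wild-type cells at 96 h, against 10.64 and 13.42 at 0 h.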

How the data were processed

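The deposited table held RPKM values that the authors computed for 60072 peaks in 12 libraries, with no counts. Per the study's methods, Omni-ATAC libraries were processed with the ChiLin pipeline, BWA and MACS; the submitters' notes name build mm9. How peaks were merged, read ends shifted and duplicates treated is not given in the sources used here. RPKM times width gave whole reads for all values (tolerance 0.001), which yielded reads and library totals. Which reads these totals count is not stated in the sources used here. Library levels were RPKM over the library's median peak.

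Tests used limma 3.58.1 (R 4.3.3; trend and robust moderation) on log2(RPKM + 1), scaled by TMM (30% and 5% trimmed) on the recovered reads, with all 12 libraries in 1 fit of 4 group means and 8 residual degrees of freedom. The filter asked for 15 reads in all and for 3 libraries with at least 10 reads, counted at the size of the median library; 57424 peaks passed and 2648 did not. The members, the comparison set and the named peaks (largest shortfall, highest wild-type level, largest increase in HMGN1-OE cells, extreme called differences at 0 h, fullest 200 kb windows, at most 1 peak per window otherwise) were chosen with earlier results of these data known. P-values measure the spread between libraries. The alternatives were other scalings, filters and pseudocounts, limma-voom, fits restricted to the compared groups, blocking on replicate number, and omission of each library. Neither sequences, motifs, GC content nor gene positions are reported, since no genome of build mm9 was used here. Positions are 1-based. Figures were drawn with matplotlib 3.10.9.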

Additional observations from a re-analysis of the deposited data

How the results depend on the processing

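The medians of 9 to 15.5 reads per lagging peak at 0 h limit the calls there. Lagging peaks called higher in HMGN1-OE than wild-type cells at 0 h numbered 5, against 8 with RPKM as deposited, 2 with division by the median peak, 3 with limma-voom, 2 with a pseudocount of 4 and 2 with only the groups compared, and 1 (without HMGN1-OE replicate 2 at 0 h) to 7 when single libraries were left out, with 2 without wild-type replicate 1 and 3 without wild-type replicate 2 at 0 h. Those called lower numbered 45, against 32 to 43 when single libraries were left out, 22 with RPKM as deposited, 20 with a pseudocount of 4, 60 with a pseudocount of 0.25 and 65 with division by the median peak. The share of all tested peaks called lower moved as well, from 11.5% to 2.62% with RPKM as deposited and 19.5% with division by the median peak. The share called higher was 10.9%, 14.3% and 6.76% in the same order. Shares of all tested peaks under the remaining settings are not given here. Lagging peaks called lower at 96 h than at 0 h in HMGN1-OE cells numbered 0, and 1 with RPKM as deposited. The neighbours called lower at 96 h came to 27.5%, and to 69.9% with RPKM as deposited. The number of peaks that met the conditions was 286, against 1834 with RPKM as deposited, 466 scaled to the reads in peaks (chosen after seeing the data), 619 with limits of 3 and 0.6, and 72 with limits of 6 and 0.35. All 286 were among the 1834, the 466 and the 395 found with TMM scaling. Leaving out single libraries gave 255 (without wild-type replicate 1 at 96 h, 229 of them shared) to 325 peaks. For 48 log2 values of named peaks (24 peaks, HMGN1-OE cells at 96 h against 0 h and HMGN1-OE against wild-type cells at 0 h; those beyond the largest increases and the called differences at 0 h were added after seeing the data), 1055 of 1104 refits kept direction and side of the threshold, 32 lost a call and 6 gained one. Calls were lost in 5 refits for the rise at chr9:57166801 and in 5 for the difference at 0 h at chr2:91812067. The 11 refits that turned the direction all concerned changes that were not called. For the change over 96 h in HMGN1-OE cells they gave -0.27 at chr10:94642852 with RPKM as deposited and 0.10 at chr2:119834479 without HMGN1-OE replicate 2 at 0 h. For the difference at 0 h, RPKM as deposited gave 0.03 at chr17:33916187 and 0.15 at chr11:100864348, scaling to the reads in peaks 0.04 at chr11:100864348, and division by the median peak 0.00 at chr8:3665646. When single libraries were left out, the difference at 0 h ranged from -0.18 to 0.01 at chr17:33916187, from -0.14 to 0.20 at chr11:100864348 and from -0.09 to 0.15 at chr8:3665646. The cause of these changes was not tested.

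Deviations of same-numbered libraries from their group means correlated at -0.04 to 0.06, so no pairing by number was seen. These correlations cannot show whether same-numbered libraries were prepared together. With a replicate block, 5 lagging peaks were called higher and 42 lower at 0 h, and 274 rose in HMGN1-OE cells, with no count moved by over 1.5 times. Without the block these counts were 5, 45 and 272. Shares of all tested peaks called with the block are not given here, so the counts serve only for comparison with the fit without it.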
